A study of Mus musculus with 24 samples.

Results

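The comparison described here is between livers of newborn Cyp1b1-null mice and newborn wild-type mice whose dams were fed a diet without vitamin A. All samples labelled as birth (postnatal day 0), vitamin A deficient and either wild type or Cyp1b1-null were taken, which gave 4 arrays of the 24 in the series, 2 for each genotype. The wild-type mice were of the strain C57Bl/6J, and the strain of the others is labelled only as Cyp1b1-null. In both groups the dams ate a standard breeder diet until embryonic day 4.5 and then a defined vitamin A deficient diet until the litters were born. Each sample was the liver RNA of a litter, pooled, with no sex of the pups given. The labels do not say that the arrays of a group came from separate dams, and p-values then measure only the spread between these samples. Newborn wild-type and null litters from dams on the sufficient diet, again 2 arrays each, serve below only to ask whether the genotype difference depended on the diet.

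Cyp1b1 is a cytochrome P450 that is induced through the aryl hydrocarbon receptor and oxidises oestradiol, retinoids and many xenobiotics. Vitamin A is stored in the liver as retinyl esters, carried in the blood by the retinol-binding protein Rbp4, and oxidised to retinoic acid, which acts through nuclear receptors of the RAR and RXR families. Around birth the liver changes from an organ of blood formation to a metabolic organ, and its RNA still holds transcripts of red cell and granulocyte precursors beside those of hepatocytes.

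Retinoic acid acts directly on the genes of its receptor Rarb and of Cyp26a1, the enzyme that degrades it, through paired direct repeats spaced by 5 bases. These promoters are shown because their genes are the standard readout of retinoid supply, and the values are given below. The sequences are the 150 bases before the RefSeq gene start on GRCm38.p6, chr19:37697658-37697807 on the plus strand for Cyp26a1 and chr14:16575477-16575626 on the minus strand for Rarb, with the match to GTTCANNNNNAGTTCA in capitals.
Cyp26a1: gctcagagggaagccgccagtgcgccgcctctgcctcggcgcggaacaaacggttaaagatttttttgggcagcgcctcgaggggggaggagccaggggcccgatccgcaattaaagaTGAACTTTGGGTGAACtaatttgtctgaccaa
Rarb: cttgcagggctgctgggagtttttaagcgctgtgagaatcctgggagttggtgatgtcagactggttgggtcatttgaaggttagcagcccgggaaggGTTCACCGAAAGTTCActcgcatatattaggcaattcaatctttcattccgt
The match lay 32 to 17 bases before the start of Cyp26a1, on the opposite strand, and 52 to 37 bases before that of Rarb, on the same strand. Read on both strands, this letter pattern occurred in 4 of 32851 promoter windows of the same length, or 0.0122%. A match is a description of the letters and does not show a bound site.

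The genotypes lay on different slides and were scanned on different days, so that slide, scan and genotype cannot be told apart in this comparison. The 75th percentile of the signal was 227 and 242 on the wild-type arrays and 479 and 421 on the null arrays. All levels below are log2 signals relative to that percentile of the array. The lowest level that counted as well above background was -3.32 and -3.26 on the wild-type arrays and -5.77 and -5.57 on the null arrays. Dimmer probes could thus be marked as above background on the null arrays, which does not show that their genes were detected. The correlation over genes was 0.964 between the wild-type arrays, 0.981 between the null arrays and 0.879 to 0.921 across genotypes, with wild-type array 1 the less like the null arrays. The number of arrays limits the precision. Differences are null minus wild type on the log2 scale with their standard error, and adjusted p-values are from limma with Benjamini-Hochberg adjustment over 20533 genes. A gene is called where that p is under 0.05.

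The array holds 2 Cyp1b1 probes of 60 bases, at chr17:80106547-80106606 and chr17:80100918-80100977 of mm9, both on the minus strand. The first and brighter probe read -2.99 and -3.72 on the wild-type arrays, where it was not well above background, and 0.13 and 0.26 on the null arrays. The null arrays were thus the higher, by at least 9.97-fold, with a difference of 3.55 ± 0.75 (adjusted p = 0.00708). The second probe read -1.97 and -3.28 in wild type against -4.43 and -4.77 on the null arrays, the opposite order. Averaged over both probes the difference was 0.79. The labels do not say which part of the gene is deleted, so neither probe checks the genotype.

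Of 20533 genes tested, 2695 were called (13.1%), 338 higher (1.65%) and 2357 lower (11.5%) in null than in wild-type liver. The median difference over all genes was -0.57, so that a gene with a difference near that value did not stand apart from the rest. The 4 arrays separated by genotype, with no overlap, for 14902 genes (72.6%). That share is the background for every statement below that the groups did not overlap. Most of the lower calls concerned dim genes: in 1795 of the 2357 neither null array was well above background, and 503 were not well above background on any of the 4. Among the 13747 genes well above background on all 4 arrays, 585 (4.26%) were called, 176 higher (1.28%) and 409 lower (2.98%), and their median difference was -0.46. For a list made up mostly of such genes 4.26% is the like share, since 13.1% counts the dim genes too. The count depended on single arrays: 31 genes were called without wild-type array 1, 1790 without wild-type array 2, 373 without null array 1 and 823 without null array 2.

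**Figure D1:**
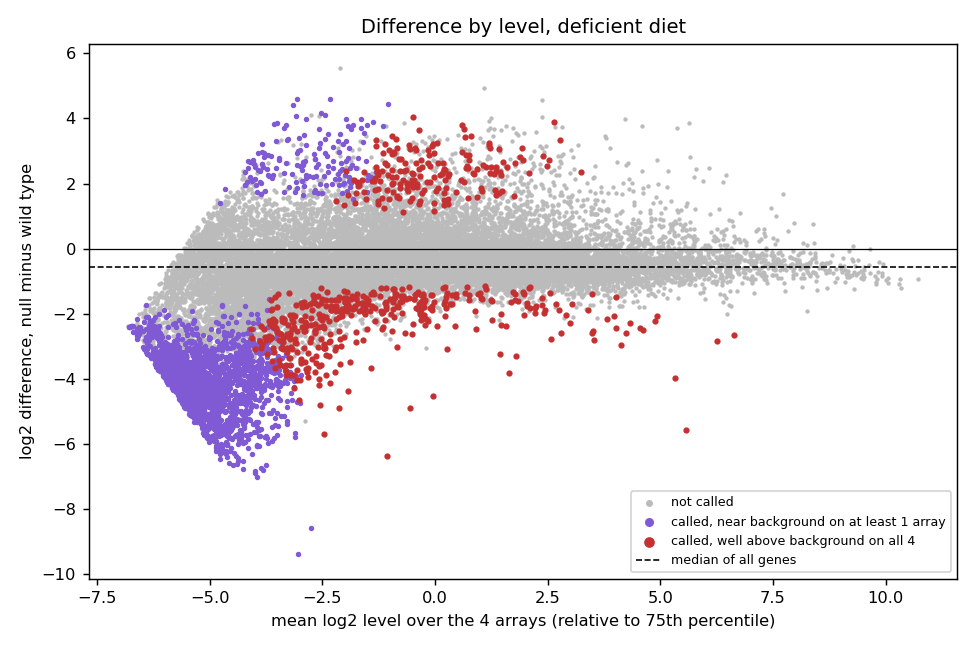
Each point is a gene, with its mean log2 level over the 4 arrays on the x axis and its log2 difference, null minus wild type, on the y axis; colours mark called genes by whether they were well above background on all 4 arrays, and the dashed line is the median of all genes. Called falls crowd at low levels, where neither null array was well above background in 1795 of 2357.

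The split of the calls by direction moved with the normalization and with the arrays in the fit. After quantile normalization 180 genes (0.877%) were called, 166 higher (0.808%) and 14 lower (0.0682%), and centring on the median gave 390 higher and 2443 lower. Without the 2 weaning arrays that correlated poorly with the rest, which lie outside this comparison but enter the shared estimate of spread, 7868 genes were called, and 4994 (2313 higher and 2681 lower) with quantile normalization as well. With the test run only on genes well above background on all 4 arrays, 12 of 13818 (0.0868%) were called, 3 higher and 9 lower, and 2374 had an unadjusted p under 0.05.

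The genes that were called under the 75th percentile scaling, quantile normalization, and normexp background correction with quantile normalization numbered 9, beside 17 (0.0828%) called in all under the last of these. Of the 9, 8 were higher and 1 was lower in null liver. They were singled out after their values were seen and are described, not tested again. Lsp1, an actin-binding protein of leukocytes, read -1.95 and -1.996 in wild type against 0.54 and 0.75 on the null arrays. This is a level 6.13-fold higher, with a difference of 2.62 ± 0.49 (adjusted p = 0.0045). The neutrophil serine protease gene Prtn3 read -1.82 and -1.11 in wild type against 1.56 and 0.77 in null liver, a difference of 2.63 ± 0.68 (adjusted p = 0.0179). Both were well above background on every array. The neutrophil list as a whole, given below, had 1 call in each direction and a median of -0.33, beside -0.57 for all genes.

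The steroid dehydrogenase gene Hsd3b6 read -1.84 and -2.53 in wild type against -0.05 and 0.22 on the null arrays, a difference of 2.27 ± 0.47 (adjusted p = 0.00669). Cald1, the actin-binding caldesmon, read 0.76 and 0.43 in wild type against 2.38 and 2.34 on the null arrays, a difference of 1.76 ± 0.42 (adjusted p = 0.0127). Of its other probes 1 differed by 1.48 and 1 by -0.27. The G protein subunit gene Gnb4 was at or near background in wild type and read -1.78 and -1.01 in null liver, at least 3.71-fold higher, whereas its other probe that was measured on all 4 arrays differed by -0.71.

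Sap25, a component of a Sin3 corepressor complex, was the lower gene of the set. It read 1.23 and 1.26 in wild type against -1.20 and -1.10 on the null arrays, 5.25-fold lower, with a difference of -2.39 ± 0.47 (adjusted p = 0.00529). The arrays of a genotype lay much closer to each other than to those of the other genotype. E130201H02Rik was higher by 1.70 ± 0.41 (adjusted p = 0.0126), and the other members were the unnamed features A_51_P327496, higher by 3.90, and NAP029182-1, higher by 2.29. On the sufficient diet the same genes differed in the same direction, for example Lsp1 by 2.03 and Sap25 by -2.43. Those arrays lay on the same slides by genotype, so that the agreement does not separate slide from genotype. Called again without 1 array were 2 of the 9 without wild-type array 1, 6 without wild-type array 2, 3 without null array 1 and 6 without null array 2.

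**Figure D2:**
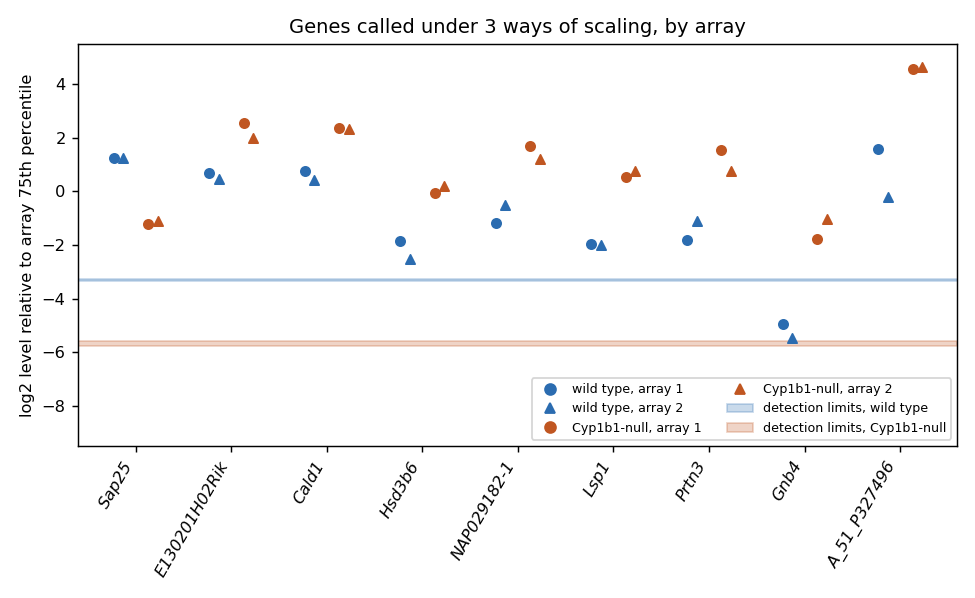
Levels of the 9 genes called under the 75th percentile scaling and both quantile settings, as log2 level on the y axis for each of the 4 arrays (blue wild type, orange Cyp1b1-null; circles array 1, triangles array 2), with shaded detection limits. Sap25 is lower on both null arrays, and the other 8 are higher.

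Among genes well above background on all 4 arrays, Tmem165, Ift140, Smndc1 and Rgl3 were called lower when the test was run on those genes alone. In that limma test the adjusted p was 0.0456 for Tmem165 and 0.0469 for Ift140, Smndc1 and Rgl3. The standard errors and adjusted p-values given next for Tmem165 and Ift140 are from the fit to all genes. Tmem165, a Golgi membrane protein needed for glycosylation, read 2.97 and 4.17 in wild type against -0.01 and -0.53 on the null arrays, a difference of -3.84 ± 0.63 (adjusted p = 0.00365), while its other probe differed by -0.11. Ift140, a component of the intraflagellar transport machinery, read 2.82 and 4.11 against 0.11 and 0.18, a difference of -3.32 ± 0.58 (adjusted p = 0.00385). The splicing factor gene Smndc1 read 1.70 and 1.92 against -1.18 and -1.35 on its brighter probe, and its second probe differed by 0.53. Such disagreement between probes was common. Of 36 genes called higher that had a second probe well above background on all 4 arrays, the other probes lay beyond the all-gene median by over 1 in the same direction for 18, and on its other side for 10. Of 49 genes called lower these numbers were 11 and 20.

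Among the largest called rises were those of Nbas, Cenpb, Mvp, Pip4p1, Atp6v1b2, Prpf19, Tnfrsf21, Fars2 and Josd1. The spliceosome ubiquitin ligase gene Prpf19, alone in this group to be well above background on all 4 arrays, read -2.22 and -2.82 in wild type against 1.60 and 1.46 on the null arrays, a difference of 4.05 ± 1.00 (adjusted p = 0.0144). Mvp, the major vault protein, was at or near background in wild type and read -0.61 and -0.25 in null liver, at least 7.24-fold higher. Fars2, the mitochondrial phenylalanine tRNA synthetase, was at least 14.4-fold higher. Atp6v1b2, a subunit of the vacuolar proton pump, was at least 4.78-fold higher, and Nbas, which acts in transport between Golgi and endoplasmic reticulum, at least 5.73-fold. None of these 9 was called after quantile normalization, where the adjusted p for Prpf19 was 0.0669.

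The 10 largest called falls among genes with a current symbol were led by the Y-linked genes Ddx3y and Eif2s3y, described below. The other 8 were 1700129C05Rik, 4930555G01Rik, Pou3f2, Hoxc10, Rax, Myo15, Hdgfl1 and A4gnt, of which Pou3f2, Hoxc10 and Rax encode developmental transcription factors of neural, limb and eye tissue. On wild-type array 1 these 8 read between -0.39 and 0.86, and on wild-type array 2 between -2.59 and -1.30. On the null arrays none was well above background. Hoxc10, for example, read 0.65 and -1.63 in wild type against -6.90 and -7.56 on the null arrays, at least 36.3-fold lower, and Pou3f2 was at least 28-fold lower. All 8 were higher on wild-type array 1 than on wild-type array 2. Gm16508, whose symbol is not current and which was named after its values were seen, fell by 7.02 on the log2 scale and read -0.44 on both wild-type arrays, so it did not show that order.

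Of the genes for retinoid transport, Rbp4 was among the brightest on the array. It read 10.01 and 9.71 in wild type against 9.20 and 9.18 on the null arrays, a difference of -0.67 ± 0.84 (adjusted p = 0.678) that was close to the all-gene median and turned to 0.08 after quantile normalization. The liver retinol receptor gene Stra6l differed by -0.60 ± 0.88, with adjusted p = 0.723. Neither difference was called. Without the 2 weaning arrays of low correlation Rbp4 was called (adjusted p = 0.0428) and Stra6l was not (adjusted p = 0.159). Of 8 measured genes of carriers and uptake 1 was called (12.5%, near the 13.1% of all genes), Crabp1, which was not well above background on any of the 4 arrays. The median of the list was -0.64 beside -0.57 for all genes.

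Among the retinoid enzymes 1 of 26 measured members was called (3.85% beside 13.1% of all genes), and the median of the list was -0.34. In this list 21 genes were well above background on all 4 arrays, a class in which 4.26% of all genes were called. The called gene was Rdh12, which reduces retinal to retinol. It read 2.87 and 3.53 in wild type against 1.26 and 1.20 on the null arrays, 3.92-fold lower, with a difference of -1.97 ± 0.49 (adjusted p = 0.0148). After quantile normalization its adjusted p was 0.0774 and with normexp it was 0.126. It was not called without any 1 of the 4 arrays, with adjusted p-values of 0.0746 to 0.117. Dhrs4, another reductase of retinal, read 0.46 and -0.42 in wild type against 3.82 and 3.35 in null liver. Its difference of 3.56 ± 1.28 was not called (adjusted p = 0.0806), but was without the 2 weaning arrays of low correlation (adjusted p = 0.000697). For both genes the genotypes did not overlap, and the directions were opposite.

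Lrat, which forms retinyl esters for storage, read -2.10 and -2.37 in wild type against -2.27 and -0.74 on the null arrays (0.73 ± 0.51, adjusted p = 0.421), and the groups overlapped. Its second probe differed by -0.43. Dhrs3, a retinoic acid induced reductase of retinal, differed by -0.53 ± 0.91, and its second probe by 0.38. The retinaldehyde dehydrogenase genes differed by 0.17 ± 1.00 for Aldh1a1 and by -0.84 ± 0.75 for Aldh1a2. Of the genes whose promoters are printed above, Cyp26a1 was not well above background on either wild-type array and read -3.96 and -4.46 there against -4.43 and -5.61 in null liver. Rarb read 0.42 and 0.16 in wild type against -0.24 and 0.01 on the null arrays, a difference of -0.41 ± 0.42 (adjusted p = 0.612). Its second probe, dimmer and not well above background on wild-type array 2, differed by -1.97. Rara was not well above background on any of the 4 arrays. Of 19 measured receptors and targets 1 was called (5.26% beside 13.1% of all genes), the homeobox gene Cdx1, at background in null liver.

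**Figure D3:**
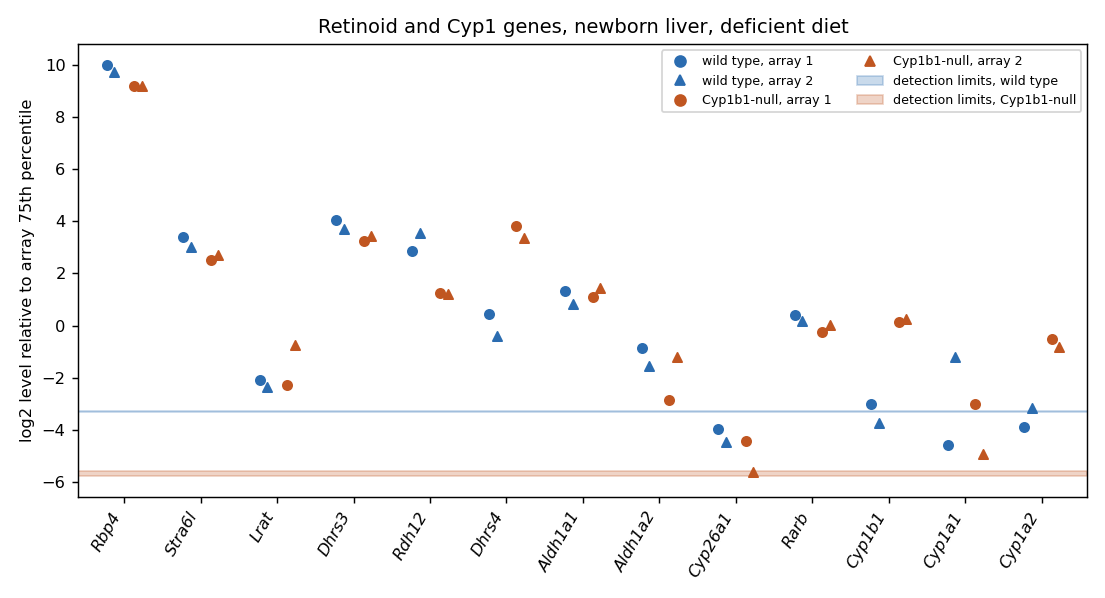
Log2 levels of retinoid and Cyp1 genes on the 4 arrays (blue wild type, orange Cyp1b1-null; circles array 1, triangles array 2), with shaded detection limits of each genotype. Rdh12 is lower on both null arrays, the brighter Cyp1b1 probe is higher, and Cyp26a1 lies near the detection limits.

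Of 51 measured genes of xenobiotic metabolism and aryl hydrocarbon receptor signalling, Cyp1b1 itself was the member called (1.96% beside 13.1% of all genes), and 43 of the 51 lay above the all-gene median. None of the list's 43 members well above background on all 4 arrays was called, beside 4.26% of all such genes. The median of the list was 0.31, and 0.52 after quantile normalization, where all genes had -0.17. The brighter Cyp1a2 probe was not well above background in wild type and read -0.53 and -0.84 in null liver. Its difference was 2.85 ± 1.28 (adjusted p = 0.169, and 0.00221 without the 2 weaning arrays of low correlation). The second Cyp1a2 probe, well above background on wild-type array 1, differed by 0.98. Cyp1a1 read -4.58 and -1.21 in wild type against -3.02 and -4.93 on the null arrays, with overlapping groups. Cyp2d22 read -0.23 and -0.39 against 3.64 and 3.30 on its brightest probe (3.78 ± 1.31, adjusted p = 0.0687), and the mean over its probes differed by 1.33. In the list of steroid enzymes and oestrogen response, 1 of 27 was called (3.7% beside 13.1% of all genes). This was Hsd3b3, higher by 3.78 ± 1.00, and its second probe differed by 0.06.

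The labelled tissue was checked on hepatocyte markers. All 37 measured markers of 40 were well above background on all 4 arrays. By limma 0 were called, and 0 had an unadjusted p under 0.05. Among all genes well above background on all 4 arrays 4.26% were called, and 2143 of 13747 had that p. Alb, the serum albumin gene, read 10.33 and 10.27 in wild type against 9.54 and 9.57 on the null arrays (-0.75 ± 0.95, adjusted p = 0.681). The fetal albumin homologue gene Afp read 10.23 and 10.17 against 9.30 and 9.38 (-0.86 ± 0.87). The fetal growth factor gene Igf2 differed by -0.47 ± 0.59. The summed linear signal of the hepatocyte list, in multiples of the 75th percentile, was 6682 and 7057 in wild type against 5083 and 5134 on the null arrays, while that of all genes was 202600 and 209800 against 156800 and 141200. Of 22 fetal liver genes, all well above background on all 4 arrays, 1 was called (4.55% beside 4.26% of all such genes). This was the imprinted noncoding RNA Meg3, lower by 2.17 ± 0.51 on its brightest probe, and the mean of its probes differed by -0.59.

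Of 39 measured erythroid genes 1 was called higher and 2 lower, or 7.69% beside 13.1% of all genes. Every called one was among the 38 of the list well above background on all 4 arrays. Among all such genes 4.26% were called. Tspo2, a porphyrin-binding protein of red cell precursors, read 4.93 and 6.27 in wild type against 2.56 and 2.73 on the null arrays, a difference of -2.96 ± 0.64 (adjusted p = 0.00797). Epor, the erythropoietin receptor, read 4.37 and 5.17 against 3.15 and 3.42, lower by 2.79-fold (adjusted p = 0.0322). Mgst3, a glutathione transferase, was higher by 2.65 ± 0.70 (adjusted p = 0.0211), and another of its probes measured on all 4 arrays differed by 0.53. The erythroid list had a median of -0.51, close to that of all genes. In bulk tissue fewer cells of a type and less RNA per cell cannot be told apart.

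Of 24 neutrophil genes Prtn3 was called higher and the antibacterial peptidoglycan recognition gene Pglyrp1 lower (8.33% beside 13.1% of all genes). Both were among the 23 of the list well above background on all 4 arrays, where 4.26% of all genes were called. Pglyrp1 read 3.77 and 4.41 in wild type against 1.77 and 1.23 on the null arrays (-2.59 ± 0.83, adjusted p = 0.0497). The called granulocyte genes therefore went in opposite directions. The median of the list was -0.33, and 18 of the 24 lay above the all-gene median. Of 24 Kupffer cell and macrophage genes, all well above background on all 4 arrays, 1 was called (4.17% beside 4.26% of all such genes). This was C1qb, a chain of the complement component C1q. It read 0.21 and 0.74 against 3.17 and 3.01, higher by 2.62 ± 0.72 (adjusted p = 0.0243). Of the 24, 21 lay above the all-gene median. Unrelated lists had like shares, with 27 of 33 genes of endoplasmic reticulum stress and heat shock and 22 of 27 of cholesterol synthesis. Of 26 stellate and mesenchyme genes 1 was called higher and 1 lower (7.69% beside 13.1% of all genes), and their median was -0.65. Both calls were among the 25 of the list well above background on all 4 arrays, where 4.26% of all genes were called. Acta2, the smooth muscle actin of activated stellate cells, was higher by 2.83 ± 0.76 on its brightest probe, but its 4 other probes differed by -0.88 to -3.01. Podn, well above background on all 4 arrays, was lower by 3.47 ± 0.95 (adjusted p = 0.0244). By limma 0 of 28 endothelial, 15 megakaryocyte, 32 skeletal muscle and 11 islet genes were called, and 2, 3, 1 and 3 had an unadjusted p under 0.05. Among all genes 13.1% were called, and 5351 of 20533 had that p. Well above background on all 4 arrays were 27, 15, 18 and 4 of the listed genes, a class with 4.26% called.

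Lists of tissues other than liver differed in their share of calls, beside 13.1% of all genes called and 11.5% called lower. Of 18 measured gut epithelium genes 4 were called lower and 1 higher (27.8% called), and of 18 genes of fat, cartilage and skin 6 were called lower (33.3%), of which 1 was well above background on all 4 arrays. Of 27 exocrine pancreas genes 2 were called lower (7.41%), and none of the muscle and islet genes given above was. Tff3, a trefoil peptide of mucous epithelia, read 6.91 and 7.73 in wild type against 4.19 and 2.47 on the null arrays, 15.9-fold lower (adjusted p = 0.00901), and remained called after quantile normalization (adjusted p = 0.0282). Lgals4, a lectin of gut epithelium, read 4.47 and 3.83 against 1.95 and 1.77, lower by 2.29 ± 0.55, and its second probe differed by -1.37. The summed signal of the gut list was 265 and 267 in wild type against 88.5 and 106 on the null arrays. Its part in other results was not tested. Apoa4, an apolipoprotein of gut and liver, differed in the other direction, at 2.58 and -0.36 in wild type against 4.39 and 4.50 on the null arrays (3.34 ± 0.90, adjusted p = 0.0226).

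Metabolic lists held few calls. Of 27 genes of cholesterol synthesis, 34 of fatty acid oxidation, 49 of oxidative phosphorylation, 44 of ribosomal proteins and 28 of bile acids and transport, limma called 0 in any list, and 2, 2, 2, 0 and 1 had an unadjusted p under 0.05, beside 13.1% called and 5351 of 20533 at that p among all genes. The medians in the same order were 0.066, -0.38, -0.40, -0.47 and -0.31. Most genes of these lists were well above background on all 4 arrays. In that class 4.26% of all genes were called, and 2143 of 13747 had an unadjusted p under 0.05. Of 35 lipogenic genes 3 were called lower (8.57%). In this list 32 genes were well above background on all 4 arrays, where 4.26% of all genes were called. Thrsp, a lipogenic nuclear protein, read 0.76 and -1.05 in wild type against -5.52 and -4.42 on the null arrays, a difference of -4.82 ± 1.43 (adjusted p = 0.0363). The lipid droplet hydrolase gene Pnpla3 was lower by 2.21 ± 0.69 and the acyltransferase gene Mogat1 by 2.18 ± 0.64. All 3 were well above background on every array and none was called after quantile normalization, with adjusted p = 0.109, 0.521 and 0.503. Hk3, a hexokinase of blood cells, was higher by 2.38 ± 0.76 (adjusted p = 0.0483).

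In 8 lists of stress, inflammation and the cell cycle 1 to 3 members each were called. Beside their shares stand 13.1% of all genes and 4.26% of those well above background on all 4 arrays. Most genes of these lists were of the latter class. Bax, the proapoptotic member of the Bcl2 family, read -2.52 and -2.87 in wild type against 0.89 and 0.68 on the null arrays, higher by 3.48 ± 0.88 (adjusted p = 0.0165). Atf4, the transcription factor of the integrated stress response, read -0.13 and -0.61 against 1.60 and 1.74, higher by 2.04 ± 0.53 (adjusted p = 0.0195). Cdk4, the G1 cyclin-dependent kinase, read -0.65 and 0.09 against 2.36 and 1.96, higher by 2.44 ± 0.63 (adjusted p = 0.0178). Each was the called member of its list, of 31 genes of p53 and apoptosis (3.23%), 33 of stress of the endoplasmic reticulum and heat shock (3.03%) and 50 of the cell cycle (2%). Calls in the lower direction were 1 of 30 antioxidant genes (3.33%) and 1 of 35 immediate early and clock genes (2.86%). The acute phase list had 2 lower calls among 32 (6.25%), the interferon list 1 higher and 2 lower among 40 (7.5%), and the hypoxia list 1 in each direction among 25 (8%). Slc7a11, the cystine transporter of the antioxidant list, was at least 6.79-fold lower.

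Other cell cycle genes went in either direction without a call: Foxm1 differed by -1.54 ± 0.61 (adjusted p = 0.115), Bub1b by 1.60 ± 0.63 and Top2a by 1.06 ± 0.46. Klf2, a flow-responsive transcription factor, read 7.28 and 8.09 in wild type against 5.17 and 4.54 on the null arrays on its brighter probe, lower by 2.84 ± 0.63 (adjusted p = 0.00859), while its other probe differed by 0.40. Socs3, the feedback inhibitor of cytokine signalling, read 3.64 and 4.16 against 2.26 and 2.13, lower by 1.70 ± 0.45 (adjusted p = 0.0212). Its second probe differed by -0.38. Egln1, an oxygen sensor, was higher by 2.09 ± 0.66 on 1 probe, and the other differed by -1.01.

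**Figure D4:**
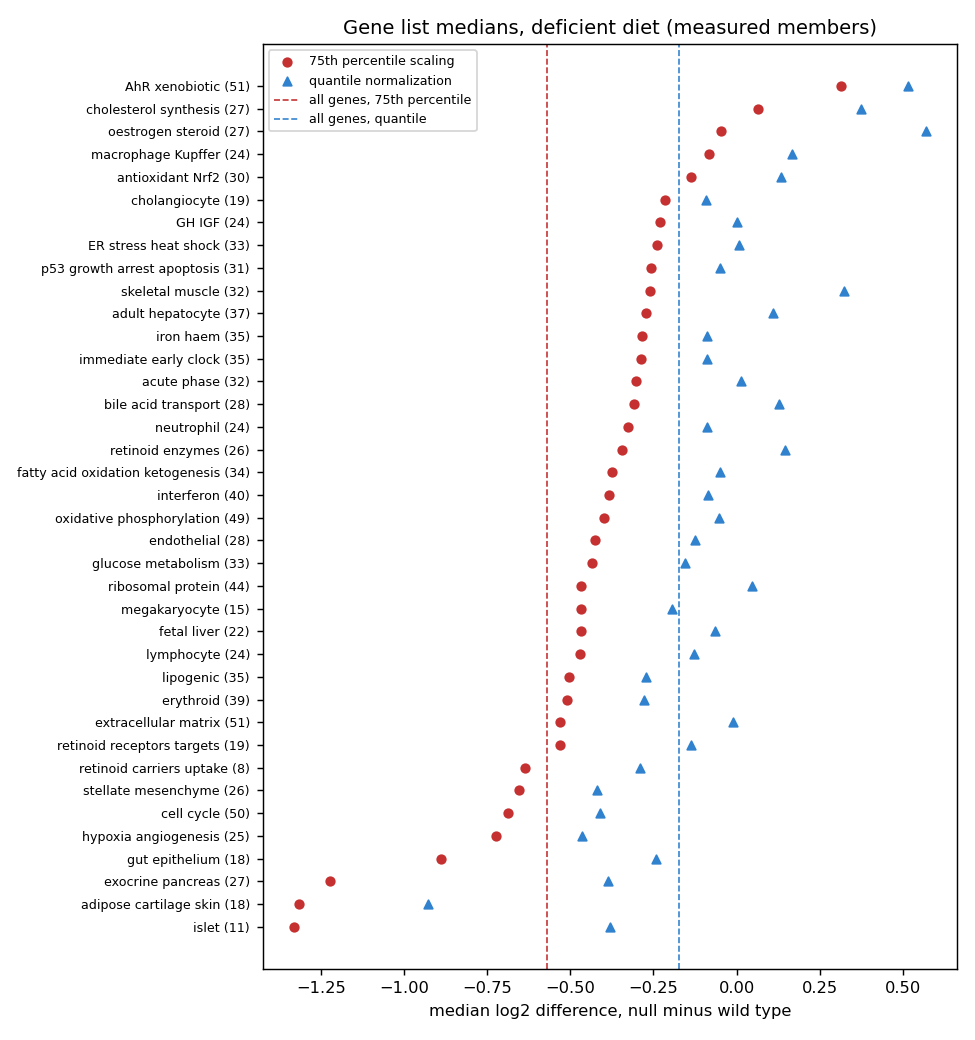
Median log2 difference, null minus wild type, of each gene list but the sex-linked one and that of genes near Cyp1b1 (number of measured members in brackets) under 75th percentile scaling (red circles) and quantile normalization (blue triangles), with the median of all genes as dashed lines at -0.57 and -0.17. Xenobiotic genes have the highest median under the first scaling, and islet, the fat, cartilage and skin list and exocrine pancreas the lowest of the lists plotted.

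Xist, the RNA that coats the inactive X chromosome of females, and genes of the Y chromosome differed between the pools. Ddx3y, a Y-linked RNA helicase gene, read 1.74 and 1.58 in wild type against -7.84 and -7.65 on the null arrays, at least 161-fold lower (adjusted p = 0.000904). Eif2s3y, a Y-linked translation factor gene, read 1.45 and 1.65 against -6.65 and -7.47, at least 149-fold lower. Kdm5d, a Y-linked histone demethylase gene, was at least 17.3-fold lower. No null array of this diet had a Y-linked gene of the list well above background. Xist read -5.29, under the detection limit, on wild-type array 1, 2.54 on wild-type array 2, and 3.69 and 3.42 in null liver. Among samples labelled as pooled litters, Y-linked RNA thus moved with genotype, and Xist RNA separated wild-type array 1 from the other 3 arrays. Their part in the other differences was not tested. On the sufficient diet, 1 null array had Ddx3y at -3.98, above its detection limit, and the other had -7.80.

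**Figure D5:**
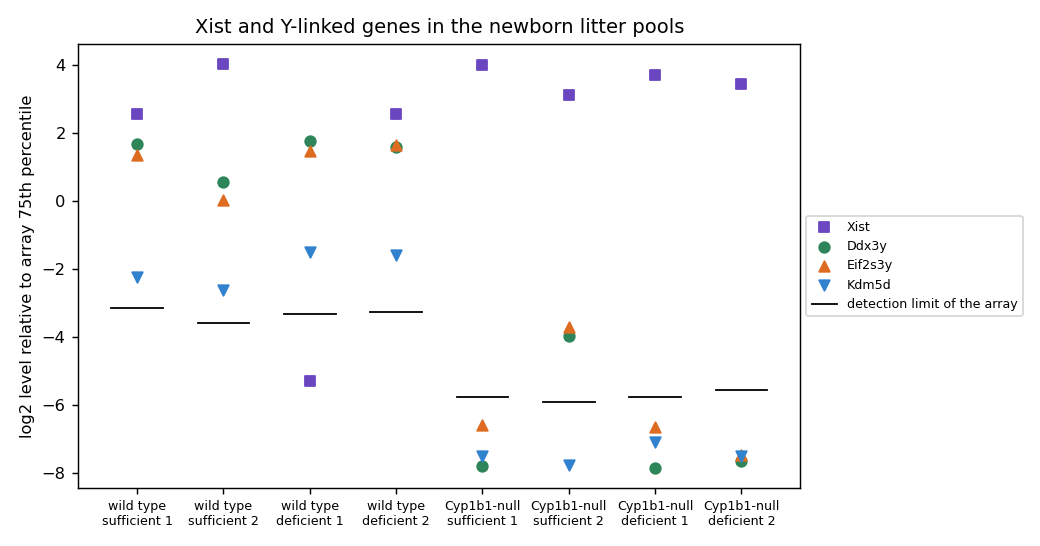
Log2 levels of Xist and 3 Y-linked genes on the 8 newborn arrays, with the detection limit of each array as a black line. Y-linked genes are above the limit on all 4 wild-type arrays and below it on both null deficient arrays, and Xist is below it on wild-type deficient array 1.

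Genes near the deleted locus on chromosome 17 were examined as a group. Of 131 measured genes within 20 Mb of Cyp1b1, 2 were called higher and 9 lower, or 8.4% beside 13.1% of all genes, and their median was -0.42. Among the 94 well above background on all 4 arrays, 1 was called higher and 1 lower, beside 4.26% of all such genes. Over the 131 genes, Arhgap28, L3mbtl4, 4930429F11Rik and 4930583I09Rik had the smallest p-values, all lower. Arhgap28 read -1.03 and -2.44 in wild type against -7.16 and -7.72 on the null arrays, at least 15.3-fold lower. L3mbtl4 read -0.05 and -1.65 against -5.35 and -5.68, and the other pair was at or near background.

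The difference between genotypes was set against that on the sufficient diet, since each genotype had both diets on 1 slide and an additive slide effect drops out of this contrast. By limma 0 of 20533 genes were called (0%), and 317 had an unadjusted p under 0.05. Single calls appeared in other fits: 1 with newborn groups only, 10 without the weaning arrays of low correlation and 2 without null sufficient array 1. Col8a1, a short-chain collagen gene, was among the smallest p-values. It read -2.16 and -2.62 in wild type against -4.35 and -2.88 on the null arrays on the deficient diet. On the sufficient diet it read -4.14 and -3.435 in wild type against -2.45 and -0.57 on the null arrays. There 1 of the 2 wild-type arrays had it well above background. The genotype difference was -1.23 on the deficient against 2.27 on the sufficient diet (difference of differences -3.50 ± 0.93, unadjusted p = 0.0017, adjusted p = 1). Yju2, a splicing factor gene, differed by 0.35 on the deficient and 2.90 on the sufficient diet. In wild type it was well above background on 1 deficient array and on neither sufficient array, where it read -5.22 and -5.71. The cerebellin gene Cbln1 differed by -4.65 and -0.29. It was well above background on both wild-type deficient arrays and on no other newborn array. These sizes thus depend on signal near background, and the sufficient difference of Cbln1 does so in both genotypes. For the retinoid gene Rdh12 the diets gave -1.97 and -1.68, and for Cyp1b1 3.55 and 5.28 on the brighter probe (unadjusted p = 0.123).

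Across all genes the deficient and sufficient differences had a correlation of 0.811 over 20533 genes. The 2 comparisons share no array but share both slides, scans and genotypes, and genes are not independent replicates. Of the 2695 genes called on the deficient diet, 425 (15.8%) were also called on the sufficient diet, and these were 84.7% of the 502 called there (2.44% of all genes). Skeletal muscle genes had a median of -0.26 on the deficient and 2.57 on the sufficient diet, and exocrine pancreas genes -1.22 and 1.72. On the deficient diet the summed signal of the muscle list was 26.2 and 11.6 in wild type against 7.12 and 89.7 on the null arrays. That of the pancreas list was 51.9 and 33.7 against 20.1 and 21.5. Muscle RNA thus differed between pools of the same group, and its part in these medians was not tested.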

How the data were processed

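Each array carried 1 dye (Cy3 per the labels), and version 10.7.3.1 of Agilent Feature Extraction made the files, per the file headers. The authors' deposited files give a spot intensity already corrected for background, with flags (0 or 1) for outlier spots and for detection above background. The submitters' processing notes name limma and Feature Extraction without versions. The authors' deposited series table repeats this intensity within a relative difference of 0.00497.

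Here, the processed intensity was scaled to the 75th percentile of its array and taken as log2, without control and outlier spots. The RefSeq table of GRCm38.p6 gave names to 27816 probes by accession, 5503 by symbol and 380 by synonym, and 7475 kept the name in the file. Probes had to be detected on all arrays of some group (30920 were), and the brightest represented its gene. limma 3.58.1 in R 4.3.3 was fitted to all 10 groups (22 samples, since 3 weaning arrays of 1 pool were averaged). It had 12 residual degrees of freedom and 3.99 prior ones. The fit was tested on simulated data. A fold "at least" sets the brighter group against, per array, the higher of the detection limit and the probe's own level.

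Named genes were 16 genes of the study question, the 10 largest called rises and falls with a current symbol and measured on both arrays of the brighter group, up to 4 members a list, up to 6 for the difference between diets and 4 neighbours of Cyp1b1. The members, the 39 lists and this rule were chosen with earlier results of these data known. Part of the genes so named is not reported here. Genes called under 3 scalings or among genes measured on all 4 arrays were chosen after their values were seen. Alternatives were the background correction, scaling, dim-probe filter, probe summary, series table, samples in the fit, slide and replicate blocks, and each array left out.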

Additional observations from a re-analysis of the deposited data

How the results depend on the processing

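The count of genes called for null minus wild type on the deficient diet (2695) was 2833 with median centring, 3208 with the mean of probes, 2687 from the series table and 2555 with the weaning pool's arrays as replicates. It fell to 17 with normexp and quantile normalization, 180 with quantile normalization, 14 with only probes well above background on all 8 newborn arrays and 1618 with the slide as a random block. Leaving out 1 array gave 31 to 1790, with the lone sample assumed to vary like the other groups. It was 6301 with no filter on dim probes, 7346 with newborn groups only, 4999 with the 4 arrays only and 7868 without the 2 weaning arrays of low correlation. With the replicate block it was 4185, although the numbers did not pair the samples (correlation of deviations -0.196). Settings added after seeing the data gave 12 with only probes well above background on all 4 arrays, 4994 without the low-correlation arrays and with quantile normalization, and 4217 with the replicate numbers of the null arrays crossed. The cause of these shifts was not tested. For the difference between diets the count of 0 became 1 with newborn groups only and 10 without the low-correlation arrays, 0 to 2 with 1 array left out, and 0 with the replicate block.

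Of the 2695 genes, 58 were called again with quantile normalization, 14 with normexp, 1617 with the slide block and 30 without wild-type array 1. Directions of named genes turned as follows. With quantile normalization Rbp4 was 0.082, Cyp26a1 0.71, Rara 1.77 and Alb 0.21; with normexp Rbp4 was 0.41, Cyp26a1 0.19, Rara 0.24, Afp 0.10 and Alb 0.42. With the mean of probes Stra6l was 0.13, Igf2 0.36, Acta2 -0.73 and Steap3 -0.51, and Gnb4 was -0.71 on probes measured on all 8 arrays. With 1 array left out Lrat ran from -0.040 to 1.49, Aldh1a1 from -0.072 to 0.42 and Cyp1a1 from -2.76 to 0.61. The number of arrays and signal near background limit what dim genes can show.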

Other observations

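Probes for olfactory receptors, which liver is not known to use, give a view of signal near background. Of 962 such probes on the array, 12.3% and 9.77% were well above background on the wild-type deficient arrays and 23.1% and 19.8% on the null deficient arrays, with median levels of -5.16 and -5.09 against -7.46 and -7.36. On the sufficient diet the shares were 7.48% and 8.52% on wild-type arrays against 26.8% and 22.1% on null arrays. The null arrays thus had more such probes marked as above background and a lower median level for them.

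Of the genes of other tissues, the homeobox gene Barhl2 was well above background on all 4 arrays and read 1.10 and -0.44 in wild type against -4.89 and -4.25 in null liver, a difference of -4.90 ± 0.85 (limma adjusted p = 0.00387), while a second, dimmer probe differed by -1.27. Epo, the hormone that drives red cell formation, was well above background only on wild-type array 1, at -1.75, among the 4 arrays of this diet, and was called lower in null liver (adjusted p = 0.0148). Serpina1b, an antitrypsin gene of hepatocytes, read 3.34 and 4.05 in wild type against 7.70 and 7.43 on the null arrays. With a standard error of 2.04 its difference of 3.87 was not called (adjusted p = 0.249). The standard deviation was 0.51 between the wild-type arrays and 0.19 between the null arrays. Without the 2 weaning arrays of low correlation Serpina1b was called (limma adjusted p = 0.00346).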
